A study of Homo sapiens with 20 samples.

Results

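The replication-dependent histone genes of human melanoma cells were examined for their levels and for their response to silencing of FRA1. They were taken as all protein-coding genes whose symbols begin with HIST1H, HIST2H, HIST3H or HIST4H, which gave 71 of the 58870 genes measured by RNA sequencing (19986 of them protein-coding). By family, 6 encode the linker histone H1, 17 encode H2A, 18 encode H2B, 15 encode H3 and 15 encode H4. The HIST1 cluster holds 55 of them on chromosome 6 (GRCh38, 25723397 to 27893891), the HIST2 genes are 12 on chromosome 1 (143894544 to 149887965), the HIST3 cluster holds 3 on chromosome 1 (228424845 to 228463104), and HIST4H4 lies on chromosome 12 (14767999 to 14771131). Another 18 genes with such symbols are not protein-coding and were left out. RNA was sequenced from A375 and 1205Lu cells, established human melanoma cell lines, in 4 groups of 3 samples, in which each line received either non-targeting siRNAs (the si-NT group) or a FRA1 siRNA treatment (the si-FRA1 group, called si-FOSL1 in the sample titles). The labels give no time after transfection, and effects of the siRNAs on other transcripts cannot be told apart from the loss of FRA1. Binding of FRA1 was profiled in both lines, with no siRNA named in the labels, by Cut&Run, which releases the DNA beside an antibody-bound protein, in 3 samples with an FRA1 antibody and 1 with IgG per line.

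Replication-dependent histone genes supply the proteins that package newly copied DNA. They are transcribed mainly during S phase, most have no introns, and their mRNAs end in a conserved stem-loop in place of a poly(A) tail. The stem-loop binding protein SLBP holds this structure while a complex guided by the U7 small nuclear RNA cuts the transcript behind it, and the coactivator NPAT drives the promoters under cyclin E and CDK2. H2A, H2B, H3 and H4 form the core of the nucleosome, and H1 binds the linker DNA between nucleosomes. FRA1, encoded by FOSL1, is a member of the AP-1 transcription factors.

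The stem-loop was used to check the name of the group, because it marks these mRNAs and was no part of how the genes were chosen. A stem-loop of 16 bases was found behind the stop codon in all 71 genes (GENCODE v44 transcripts), 22 to 67 bases downstream with a median of 35. The 4 most frequent forms are shown as DNA letters, with the 4 bases of the loop in capitals, and the 6 bases on its left pair with the 6 on its right.
Form of 41 genes from all families except H4: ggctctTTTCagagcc
Form of 10 H4 genes: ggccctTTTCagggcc
Form of 10 genes, among them HIST1H1A, HIST1H2BK and HIST1H3G: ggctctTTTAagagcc
Form of 4 H4 genes (HIST1H4I, HIST1H4K, HIST2H4A and HIST2H4B): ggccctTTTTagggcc
The other 6 genes carried a form of their own, such as HIST1H3E (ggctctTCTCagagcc). Although the genes keep this common end, 13 of them have an annotated transcript that runs more than 100 bases past it. All annotated transcripts had a single exon in 54 genes. The encoded proteins are also much alike, since 14 H4 genes encode the same protein of 103 residues and 10 HIST1H3 genes the same protein of 136 residues.

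Promoters of 300 bases, from 250 before to 50 after the start, were available for 66 of the genes (RefSeq, GRCh38.p14). They were searched on both strands for the octamer ATTTGCAT, a site of OCT1 (POU2F1) known from H2B promoters, and for the CCAAT box. The TATAAA element was searched as well. E2F sites were searched as TTTCGCGC or as the form TTTGGCGC, and AP-1 sites as TGACTCA or as the form TGAGTCA. The octamer was present in 26 of the 66 promoters against 1.8% of 27305 promoters of all genes, and 25 of these 26 belonged to the 34 H2A and H2B promoters. The remaining window was that of HIST1H3D, and it is the same stretch as the HIST1H2AD window (chr6:26199244-26199543). HIST1H3D itself is annotated at 26196784 to 26197286 (GENCODE v44), so the same bases were counted for both genes. Windows of many neighbouring H2A and H2B genes on opposite strands also overlap, as for HIST2H2BE and HIST2H2AC or HIST1H2BJ and HIST1H2AG. A match of any motif in shared bases was counted for both genes, so these promoters are not independent. CCAAT was in 56 (35.7% of all promoters), including every H1, H2A, H2B and H3 promoter and 3 of 13 H4 promoters. TATAAA was in 44 (11.95% of all promoters) and an E2F site in 12 (1.18%). The AP-1 letters occurred in 0 of the 66 windows and in 4.92% of all promoters, which says only that these letters are not in these windows. The promoters below are shown because their genes recur in the results: HIST1H2BK and HIST1H3F differed between the lines, HIST2H2AA4 has a near-identical copy, and HIST1H4E fell in both lines with no difference called between them (interaction 0.05, adjusted p = 0.60). Each is written 5′ to 3′ on the strand of its gene, and capitals mark every match to these motifs, with adjoining or overlapping matches run together.
HIST1H2BK (chr6:27146809-27147108, minus strand): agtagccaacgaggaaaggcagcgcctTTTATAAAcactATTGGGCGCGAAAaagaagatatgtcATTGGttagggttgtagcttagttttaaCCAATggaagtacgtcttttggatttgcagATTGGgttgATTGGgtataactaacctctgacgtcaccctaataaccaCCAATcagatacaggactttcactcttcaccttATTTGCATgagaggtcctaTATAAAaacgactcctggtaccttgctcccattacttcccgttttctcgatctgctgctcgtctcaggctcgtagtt
HIST1H3F (chr6:26250586-26250885, minus strand): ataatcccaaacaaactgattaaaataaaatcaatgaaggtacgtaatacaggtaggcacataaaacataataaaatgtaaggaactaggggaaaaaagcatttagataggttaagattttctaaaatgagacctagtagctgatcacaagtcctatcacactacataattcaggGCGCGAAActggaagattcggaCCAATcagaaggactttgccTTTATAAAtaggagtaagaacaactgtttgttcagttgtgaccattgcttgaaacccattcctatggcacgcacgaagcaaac
HIST2H2AA4 (chr1:149850811-149851110, plus strand): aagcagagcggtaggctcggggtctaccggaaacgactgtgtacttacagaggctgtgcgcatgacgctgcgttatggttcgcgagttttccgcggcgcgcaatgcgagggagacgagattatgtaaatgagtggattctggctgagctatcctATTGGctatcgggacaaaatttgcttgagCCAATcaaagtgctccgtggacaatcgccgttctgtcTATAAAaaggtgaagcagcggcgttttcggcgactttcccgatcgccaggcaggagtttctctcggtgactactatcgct
HIST1H4E (chr6:26204360-26204659, plus strand): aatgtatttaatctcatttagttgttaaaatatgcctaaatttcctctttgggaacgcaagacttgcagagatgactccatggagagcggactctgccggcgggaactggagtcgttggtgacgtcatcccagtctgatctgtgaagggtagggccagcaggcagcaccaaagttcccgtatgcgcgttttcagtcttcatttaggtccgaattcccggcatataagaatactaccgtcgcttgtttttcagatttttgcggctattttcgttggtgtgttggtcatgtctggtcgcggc
The HIST1H2BK promoter held the octamer, an E2F site, several CCAAT boxes and TATAAA, whereas none of the motifs matched in the HIST1H4E window.

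The counts assigned to genes ranged from 20573412 to 32518903 per RNA-seq sample. FOSL1 was first checked in every sample. In A375 cells it was 412.6, 423.8 and 407.5 CPM under si-NT (CPM, the usual unit of counts scaled by library size, here corrected by TMM) and 25.7, 25.7 and 26.0 CPM under si-FRA1, which left 6.22%. In 1205Lu cells it was 492.3, 483.7 and 477.7 CPM under si-NT and 69.4, 70.9 and 65.1 CPM under si-FRA1, which left 14.1%. The labels call both lines melanoma cells, but PMEL, MLANA, TYR, TYRP1 and DCT, which define pigment cells, averaged at most 1.29 CPM in every group. SOX10, a transcription factor of the neural crest and melanocytes, averaged 43.96 CPM in A375 si-NT cells and 913.7 CPM in 1205Lu si-NT cells. MITF, the regulator of the melanocyte lineage, went the other way, at 52.2 CPM in A375 si-NT cells and 3.55 CPM in 1205Lu si-NT cells, and it rose with si-FRA1 in A375 cells (0.29, adjusted p = 2.2e-05). With S100B and S100A1, the 9 melanocyte markers summed to 98.3 to 102.4 CPM in A375 si-NT and 100.3 to 106.4 CPM in A375 si-FRA1 samples. In 1205Lu cells they summed to 1523 to 1558 CPM under si-NT and 1260 to 1286 CPM under si-FRA1. Of 6 tested in each line, 3 rose and 1 fell in A375 cells, and 0 rose and 3 fell in 1205Lu cells. The 4 epithelial markers summed to 1570 to 1599 CPM in A375 si-NT samples, 1466 to 1512 CPM in A375 si-FRA1 samples, 83.2 to 85.8 CPM in 1205Lu si-NT samples and 96.0 to 103 CPM in 1205Lu si-FRA1 samples. Nearly all of this came from the keratin genes KRT18 and KRT8, while EPCAM and CDH1 averaged at most 0.587 CPM in every group. The 4 leukocyte markers summed to 77.9 to 79.8 CPM in A375 si-NT samples and 56.5 to 61.1 CPM in A375 si-FRA1 samples, and to 17.2 to 18.4 CPM and 7.14 to 8.42 CPM in 1205Lu cells. CD68 gave nearly all of it and fell in both lines (-0.43 and -1.22), while PTPRC, CD3E and CD14 averaged at most 0.553 CPM. The 3 endothelial markers summed to at most 2.73 CPM in any sample. The 5 fibroblast markers summed to 13.2 to 13.9 CPM in A375 si-NT samples and 33.1 to 35.2 CPM in A375 si-FRA1 samples, with 3 of 4 tested rising, and the part of these markers in the results below was not tested. In such bulk samples, fewer cells in S phase and less histone mRNA per cell cannot be told apart. The labels do not say that replicates came from separate cultures, so p-values measure only the spread between these samples.

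Histone mRNA as a whole was lower after FRA1 silencing in both lines. Summed over the 71 genes, the level was 5125, 5124 and 5149 CPM in the A375 si-NT samples and 4085, 4112 and 4055 CPM in the si-FRA1 samples, a change of -20.4% between the means. In 1205Lu cells the sum was 4642, 4624 and 4604 CPM under si-NT and 3316, 3300 and 3426 CPM under si-FRA1, a change of -27.6%. The si-NT and si-FRA1 samples did not overlap in either line. As a share of all counts, the genes went from 0.5251% ± 0.0015 to 0.4097% ± 0.0034 in A375 cells and from 0.4524% ± 0.0014 to 0.3312% ± 0.0053 in 1205Lu cells (SD, n = 3).

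All 5 families had a lower sum with si-FRA1 in each line, and the sizes differed. The H3 sum changed most, from 742.7 ± 11.2 to 531.5 ± 10.4 CPM in A375 cells (-28.4%) and from 655.5 ± 10.9 to 409.8 ± 9.01 CPM in 1205Lu cells (-37.5%). The H2A sum changed by -23.7% and -30.7% in the same order, the H2B sum by -24.3% and -27.5%, and the H4 sum by -16.5% and -19.9%. The linker histones stood apart between the lines. Their sum went from 932.9 ± 13.8 to 868.7 ± 14.4 CPM in A375 cells, a change of -6.88%, and from 793.8 ± 17.0 to 619.2 ± 15.0 CPM in 1205Lu cells, a change of -22% (SD, n = 3 throughout). These sums add genes on the CPM scale, which does not correct for length, so they compare groups and not families.

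**Figure D1:**
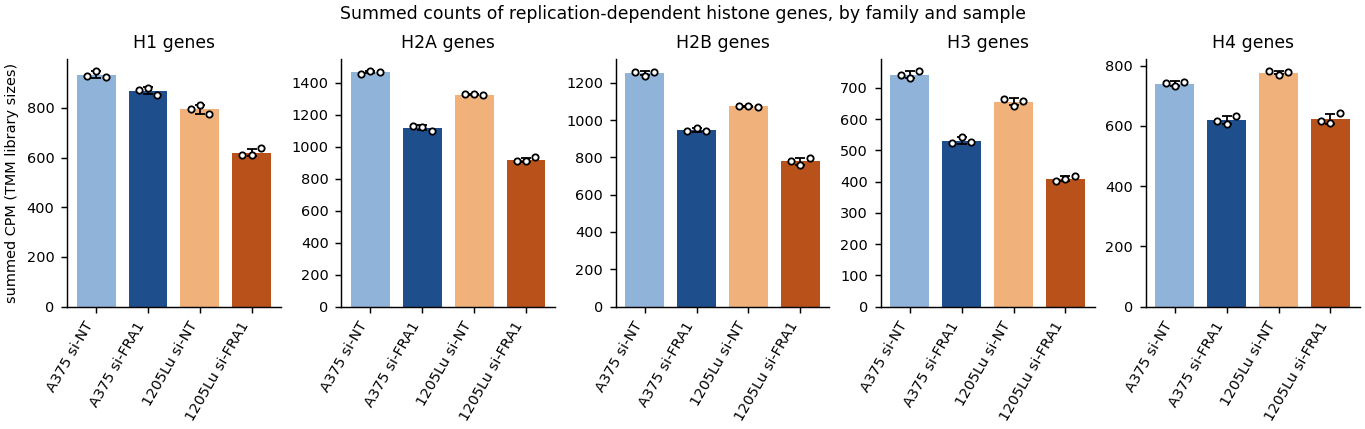
Summed level of the genes of each histone family on the vertical axis (CPM on TMM library sizes, starting at 0) for the 4 groups on the horizontal axis. Bars are means of 3 samples, error bars are the SD and circles are single samples. In every family the si-FRA1 circles lie below the si-NT circles of the same line, and the H1 step is small in A375 cells (-6.88%) and larger in 1205Lu cells (-22%).

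Gene by gene, most of the measured members fell. Each gene was tested within a line by edgeR's quasi-likelihood test, with p-values adjusted over all genes by the Benjamini-Hochberg method, and was called at an adjusted p under 0.05. Fold changes are si-FRA1 over si-NT. In A375 cells 62 of the 71 genes passed the filter on low counts. Of these, 47 (75.8%) were lower with si-FRA1, against 27.8% of all 13598 protein-coding genes tested. Only 3 were higher, HIST1H1C, HIST1H3E and HIST2H2AA3 (4.84%, against 29.9% of protein-coding genes), and 12 were not called. In 1205Lu cells 58 genes were tested, and 50 (86.2%) were lower, against 23% of 13728 protein-coding genes. HIST1H1A and HIST2H2AA3 were higher (3.45%, against 24%), and HIST1H2BE, HIST1H4A, HIST2H3C, HIST2H3PS2, HIST3H2A and HIST3H2BB were not called. The falls were mostly small. The median log2 fold change of the tested members was -0.32 in A375 cells and -0.55 in 1205Lu cells, where the medians of all protein-coding genes were 0.01 and -0.00093. In A375 cells no member was called with a fall of more than 2-fold (2.51% of protein-coding genes were), although HIST2H3C passed that size without a call, and in 1205Lu cells 3 were called so (1.86%), namely HIST1H3F, HIST2H4B and HIST1H2BB. In each line the 1 member called with a rise of more than 2-fold was HIST2H2AA3 (2.78% of protein-coding genes in A375 cells and 1.11% in 1205Lu cells), whose counts are uncertain for a reason given with the copies.

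Of the 58 genes tested in both lines, 41 were lower in both. These are 41 of the 44 that were lower in A375 cells and 41 of the 50 that were lower in 1205Lu cells. HIST1H1C and HIST1H3E were higher in A375 cells and lower in 1205Lu cells, and HIST1H1A was lower in A375 cells and higher in 1205Lu cells. HIST1H1B, HIST1H1D, HIST1H4F and HIST4H4 were measured above the filter in A375 cells only. The remaining 9 genes were under the filter in both lines, among them HIST1H3D and HIST1H4G, which had 0 counts in all 12 samples. HIST1H3D shares 96.04% of its short sequence windows with an overlapping annotated gene model. HIST1H4K, also under the filter, shares 91.32% of its windows with HIST1H4J. Reads of HIST1H3D and HIST1H4K may thus have been assigned elsewhere, and their counts do not show that they were silent. The 9 genes also include the 4 genes known from testis, HIST1H1T, HIST1H2AA, HIST1H2BA and HIST3H3, which together reached at most 0.58 CPM in any sample.

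**Figure D2:**
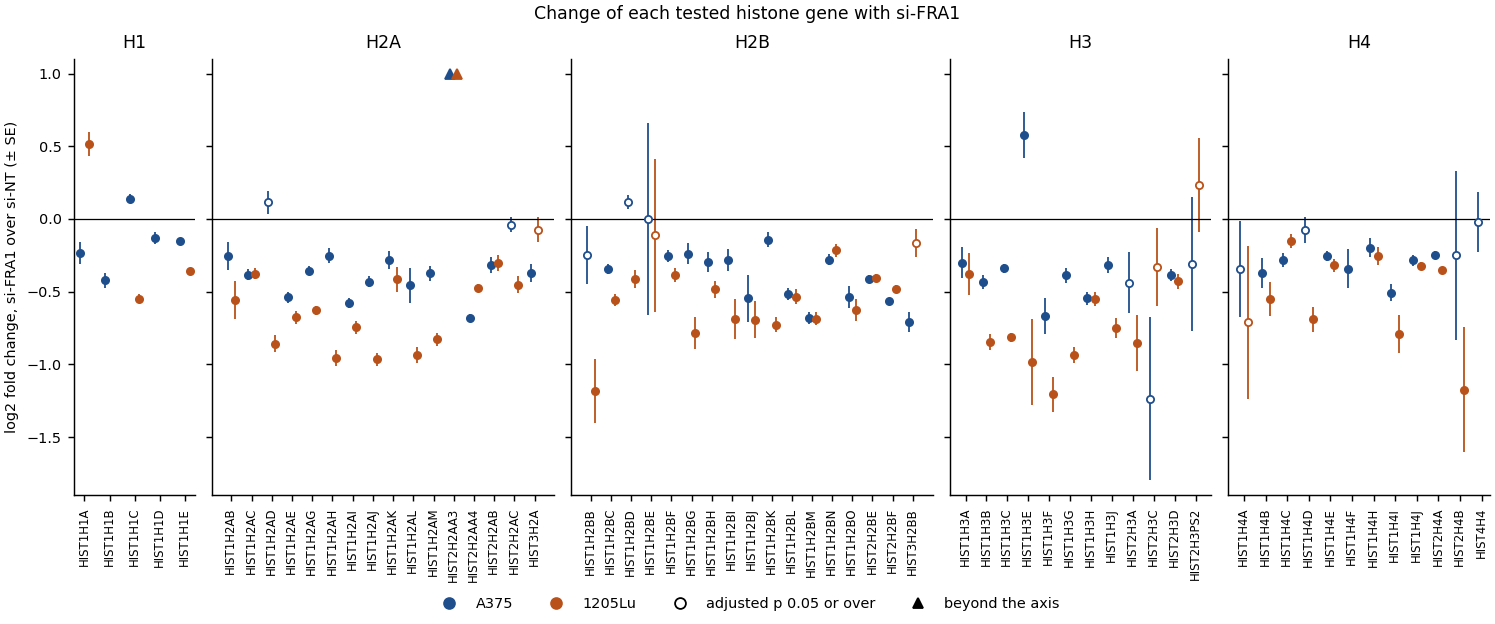
Log2 fold change of each tested histone gene (vertical axis, si-FRA1 over si-NT, with the standard error) by family, in A375 (blue) and 1205Lu cells (orange). Filled circles have an adjusted p under 0.05 (edgeR) and open circles do not. HIST2H2AA3 lies beyond the axis at 5.52 and 3.71 and is drawn as triangles at its upper end. Most filled circles lie below 0, and the 1205Lu value often lies under the A375 value of the same gene.

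Among the linker histones, the lines parted gene by gene. HIST1H1E (chr6:26156329-26157115), the H1.4 subtype, was 577.8, 602.6 and 589.5 CPM in A375 si-NT samples and 538.7, 534.3 and 529.1 CPM under si-FRA1. In 1205Lu cells it was 588.4, 601.8 and 577.9 CPM under si-NT and 463.0, 452.9 and 481.6 CPM under si-FRA1. It fell in both lines, by a log2 fold change of -0.15 (SE 0.0194, adjusted p = 6.3e-07) in A375 cells and -0.36 (SE 0.0219, adjusted p = 5.8e-11) in 1205Lu cells. HIST1H1C (chr6:26055740-26056470), the H1.2 subtype, was 170.7, 176.0 and 168.2 CPM under si-NT and 184.5, 197.8 and 187.2 CPM under si-FRA1 in A375 cells. Every si-FRA1 sample was higher, with a log2 fold change of 0.14 (SE 0.0291, adjusted p = 0.00029). In 1205Lu cells the same gene went from 192.3, 190.5 and 182.4 CPM to 126.9, 132.5 and 132.1 CPM, with every si-FRA1 sample lower (-0.55, SE 0.0295, adjusted p = 8e-12). HIST1H1A (chr6:26017032-26017787), the H1.1 subtype, showed the reverse. It was 21.9, 19.3 and 19.6 CPM under si-NT and 17.4, 17.7 and 16.6 CPM under si-FRA1 in A375 cells (-0.24, SE 0.0764, adjusted p = 0.012), a call that was lost without si-NT sample 1 (-0.18, adjusted p = 0.086). Its 1205Lu values moved from 14.1, 17.2 and 15.2 CPM to 21.6, 23.1 and 22.3 CPM (0.52, SE 0.0811, adjusted p = 2.9e-05), with no overlap between the groups.

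HIST1H1B and HIST1H1D, the H1.5 and H1.3 subtypes, were present in A375 cells and nearly missing in 1205Lu cells. HIST1H1D (chr6:26234212-26234987) was 86.6, 86.5 and 82.8 CPM in A375 si-NT samples, while the 1205Lu si-NT samples held 7 counts in all. This is a ratio of 936 (95% exact Poisson interval of the pooled 1205Lu counts 455 to 2330). HIST1H1B (chr6:27866792-27867588) was 69.3, 64.1 and 63.4 CPM in A375 si-NT samples against 27 counts over the 1205Lu si-NT samples, a ratio of 187 (128 to 283). These intervals cover counting error only. With si-FRA1 both genes fell in A375 cells, HIST1H1B to 50.3, 51.1 and 45.8 CPM (-0.42, SE 0.0496, adjusted p = 1.3e-07) and HIST1H1D to 82.2, 78.7 and 73.3 CPM (-0.13, SE 0.0413, adjusted p = 0.01).

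**Figure D3:**
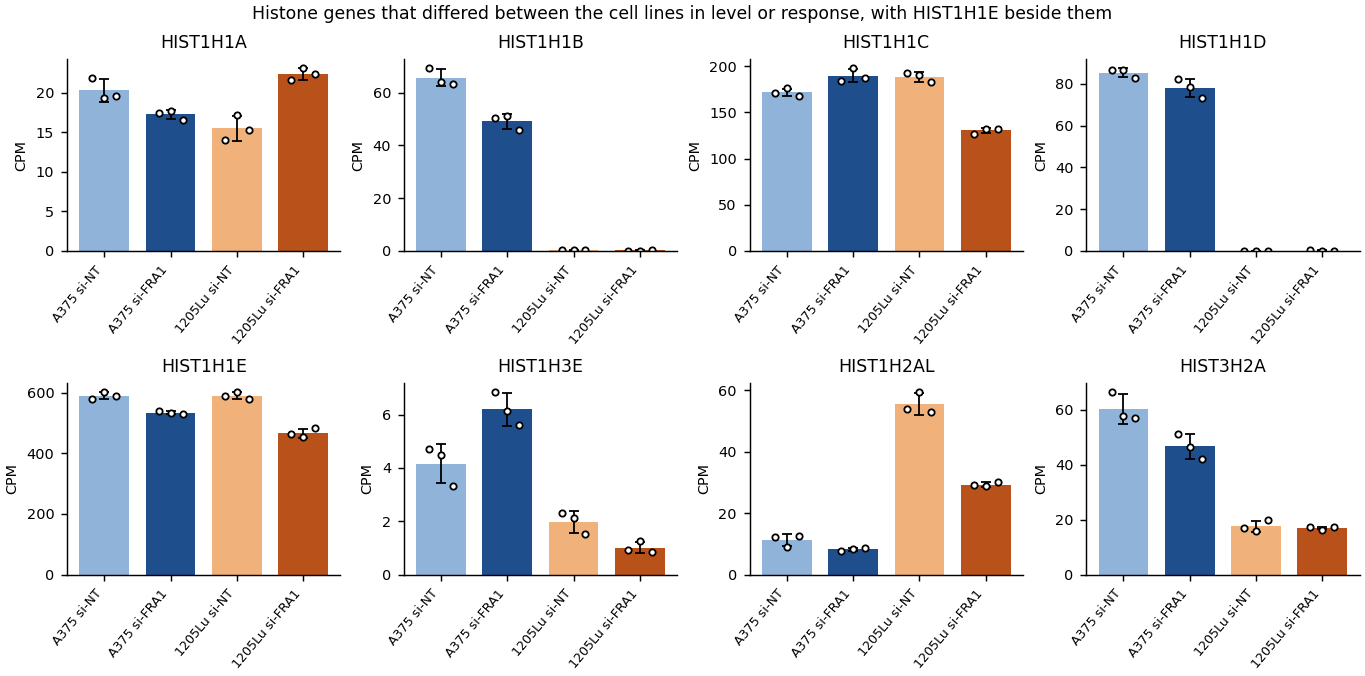
Level of 8 histone genes (vertical axes, CPM, each starting at 0) in the 4 groups on the horizontal axis. Bars are means of 3 samples, error bars are the SD and circles are single samples. HIST1H1B and HIST1H1D have almost no counts in 1205Lu cells, HIST1H1C and HIST1H3E rise with si-FRA1 in A375 cells and fall in 1205Lu cells, and HIST1H1A does the opposite.

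Of the H2A genes, 16 were tested in each line. In A375 cells 13 fell and in 1205Lu cells 14 did, with medians of -0.36 and -0.59. HIST1H2AG, which encodes the same protein as 4 other HIST1H2A genes, was 167.1, 176.8 and 172.6 CPM under si-NT and 136.5, 137.1 and 131.5 CPM under si-FRA1 in A375 cells (-0.36, SE 0.0295, adjusted p = 3.6e-10). Its 1205Lu values moved from 163.1, 166.8 and 167.0 CPM to 107.5, 107.1 and 110.6 CPM (-0.63, SE 0.0292, adjusted p = 8.2e-13). The 1205Lu change of HIST1H2AH was larger still, from 47.1, 46.5 and 45.8 CPM to 25.7, 23.8 and 23.2 CPM (-0.96), against -0.25 in A375 cells. HIST1H2AC fell by nearly the same amount in both lines, with log2 fold changes of -0.38 and -0.38. HIST1H2AL (chr6:27865317-27865798) began at different levels, 12.2, 9.06 and 12.6 CPM in A375 si-NT samples and 54.1, 59.6 and 53.1 CPM in 1205Lu si-NT samples. It fell to 7.75, 8.31 and 8.70 CPM in A375 cells (-0.46, SE 0.121, adjusted p = 0.0029) and to 29.1, 28.8 and 30.1 CPM in 1205Lu cells (-0.94, SE 0.0549, adjusted p = 2.8e-11). HIST1H2AD, which overlaps another annotated gene model in 82% of its 100-base windows, went from 52.3, 55.8 and 51.2 CPM to 29.7, 27.5 and 31.8 CPM in 1205Lu cells (-0.86, adjusted p = 2.2e-10). In A375 cells it was 17.7, 21.4 and 22.5 CPM under si-NT and 22.2, 21.8 and 23.2 CPM under si-FRA1, where the groups overlapped and the change was not called (0.11, adjusted p = 0.25).

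Of the 17 H2B genes tested in each line, 14 fell in A375 cells and 15 in 1205Lu cells, and none was called higher, with medians of -0.30 and -0.53. HIST2H2BF was 307.0, 298.8 and 305.5 CPM under si-NT and 205.6, 210.1 and 202.3 CPM under si-FRA1 in A375 cells (-0.57, SE 0.0238, adjusted p = 1.2e-15). Its 1205Lu values moved from 280.7, 279.3 and 295.5 CPM to 212.6, 202.7 and 204.7 CPM (-0.48, SE 0.0275, adjusted p = 1.9e-11). HIST2H2BE (chr1:149884459-149886682) gave log2 fold changes of -0.41 in A375 and -0.41 in 1205Lu cells, and HIST1H2BM gave -0.68 and -0.69. HIST1H2BF gave -0.26 and -0.39. HIST1H2BK, whose promoter is printed above, differed. In A375 cells it was 67.8, 69.4 and 69.1 CPM under si-NT and 57.4, 62.4 and 68.2 CPM under si-FRA1 (-0.14, SE 0.05, adjusted p = 0.021), a call lost without si-NT sample 2 (-0.14, adjusted p = 0.055), si-NT sample 3 (-0.14, adjusted p = 0.055) or si-FRA1 sample 1 (-0.08, adjusted p = 0.19). Its 1205Lu values moved from 85.2, 77.6 and 73.9 CPM to 47.6, 47.1 and 50.1 CPM (-0.73, SE 0.0514, adjusted p = 4.6e-10), with no overlap. HIST3H2BB, in the HIST3 cluster, had its larger fall in A375 cells, from 34.0, 32.7 and 37.2 CPM to 22.2, 19.8 and 21.6 CPM (-0.71, SE 0.0662, adjusted p = 2.9e-09). In 1205Lu cells it was 15.6, 17.0 and 14.3 CPM under si-NT and 15.4, 13.3 and 13.5 CPM under si-FRA1, which overlapped (-0.16, adjusted p = 0.18).

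For H3, 12 genes were tested in each line. In A375 cells 8 fell and HIST1H3E rose, with a median of -0.39, and in 1205Lu cells 10 fell, with a median of -0.78. HIST1H3F (chr6:26250142-26250635) fell in both lines, from 8.595, 10.88 and 10.94 CPM to 5.73, 7.05 and 6.56 CPM in A375 cells (-0.67, SE 0.126, adjusted p = 9.3e-05). In 1205Lu cells it went from 14.6, 13.3 and 13.9 CPM to 5.31, 6.92 and 6.03 CPM (-1.21, SE 0.118, adjusted p = 5.5e-08). HIST1H3C, which encodes the same protein, was 124.7, 117.4 and 119.9 CPM under si-NT and 94.2, 96.6 and 96.2 CPM under si-FRA1 in A375 cells (-0.34), and 139.4, 140.4 and 136.9 against 79.4, 81.3 and 79.2 CPM in 1205Lu cells (-0.81). HIST1H3G gave -0.39 in A375 and -0.94 in 1205Lu cells. HIST1H3E (chr6:26224199-26227473), which has an annotated transcript running past the stem-loop, moved in opposite directions at low counts. It was 4.71, 4.47 and 3.32 CPM under si-NT and 6.86, 6.14 and 5.63 CPM under si-FRA1 in A375 cells (0.58, SE 0.156, adjusted p = 0.0034). In 1205Lu cells it was 2.30, 2.14 and 1.52 CPM under si-NT and 0.9255, 1.250 and 0.8609 CPM under si-FRA1 (-0.98, SE 0.298, adjusted p = 0.012), a call lost without si-NT sample 1 (-0.86, adjusted p = 0.07).

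H4 genes had the medians nearest to 0 among the core histones. Of 12 tested in A375 cells 8 fell, and of 10 tested in 1205Lu cells 9 fell, with medians of -0.27 and -0.45. HIST2H4A was 310.9, 292.5 and 308.6 CPM under si-NT and 267.6, 247.9 and 255.7 CPM under si-FRA1 in A375 cells (-0.25, SE 0.0283, adjusted p = 9.4e-08). In 1205Lu cells it went from 269.0, 275.9 and 277.0 CPM to 215.6, 219.0 and 215.9 CPM (-0.35, SE 0.0226, adjusted p = 1.1e-10). HIST1H4E, whose printed promoter held none of the motifs, gave -0.26 in A375 and -0.32 in 1205Lu cells, and HIST1H4J gave -0.28 and -0.32. HIST1H4D was 15.2, 14.2 and 16.1 CPM under si-NT and 12.89, 15.99 and 14.65 CPM under si-FRA1 in A375 cells, with overlap and no call (-0.08, adjusted p = 0.53), and it was near 0 without si-FRA1 sample 1 (0.0098). In 1205Lu cells the same gene went from 22.1, 20.7 and 19.0 CPM to 13.7, 12.1 and 13.1 CPM (-0.69, SE 0.0865, adjusted p = 1.7e-06). HIST1H4F (chr6:26240393-26240793) was 10.1, 8.15 and 7.46 CPM in A375 si-NT samples and had 0 counts in every 1205Lu sample. Against a floor of 3 counts pooled over the 1205Lu si-NT samples, it was 219-fold higher in A375 si-NT cells. The lower limit of the ratio by the 95% exact Poisson interval was 178.

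The difference between the lines in their response was tested as the interaction of line and treatment over all 12 samples, as the A375 response minus the 1205Lu response. Of 62 members tested, 46 had a positive value, and 22 of these were called, mostly a smaller fall in A375 cells (35.5% of the members, against 18.9% of 14844 protein-coding genes). Of the 16 with a negative value 4 were called (6.45%, against 19.9%). The median was 0.17 for the members and 0.00 for all protein-coding genes. Among the 41 genes that fell in both lines, 15 fell more in 1205Lu cells and HIST2H2AA4 fell more in A375 cells. HIST1H3E (1.55), HIST1H2AD (0.96), HIST1H2BB (0.92, adjusted p = 0.021), HIST1H2AH (0.69, SE 0.0748, adjusted p = 4.8e-08) and HIST1H1C (0.67, SE 0.0444, adjusted p = 6.7e-12) had the largest positive values among called members. The called negative values belonged to HIST1H1A (-0.76, SE 0.115, adjusted p = 8.2e-06), HIST3H2BB (-0.56, SE 0.116, adjusted p = 0.00045), HIST3H2A (-0.31, SE 0.116, adjusted p = 0.044) and HIST2H2AA4 (-0.22, SE 0.0459, adjusted p = 0.00046). By cluster, 21 of the 47 HIST1 genes tested were called with a positive value and 1 with a negative one, the 12 HIST2 genes gave 1 call of each sign, and both HIST3 genes tested were called with a negative value.

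With si-NT, before any silencing, the lines also differed in single histone genes. Compared with 1205Lu cells, A375 cells had 31 members called higher (44% of protein-coding genes were) and 15 called lower (37.8% were). Past a 2-fold difference, 9 were higher (14.5% of the members, 19.4% of protein-coding genes) and 2 lower (3.23%, against 19.5%), and the median difference was 0.14 on the log2 scale against 0.08 for all protein-coding genes. Apart from HIST1H1B, HIST1H1D, HIST1H4F and HIST4H4, the genes past 2-fold were HIST3H2A (1.77, SE 0.0788), HIST1H4I (1.605), HIST3H2BB (1.15), HIST1H3E (1.06) and HIST1H2BL (1.01), all higher in A375 cells, and HIST1H2AL (-2.30, SE 0.0843) and HIST1H2AD (-1.36, SE 0.0707), both lower. HIST3H2A (chr1:228434777-228457873) was 66.6, 57.7 and 56.9 CPM in A375 si-NT samples and 17.1, 15.9 and 19.8 CPM in 1205Lu si-NT samples. It fell with si-FRA1 in A375 cells (-0.37, adjusted p = 2.9e-05), whereas the 1205Lu change was not called (-0.07, adjusted p = 0.55) and was 0.02 without si-NT sample 3.

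Several members are near-identical copies of each other, so reads cannot be assigned to one with certainty. Taking genes with at least 50% of their 100-base windows in another gene, 10 members formed 5 such pairs at separate places and 3 overlapped another gene, while 48 members shared no window with any gene. The clearest case is HIST2H2AA3 and HIST2H2AA4, which encode the same H2A protein and whose promoters share a run of 299 of 300 bases. In the A375 si-NT samples HIST2H2AA3 took 0%, 0.332% and 0.387% of the counts of the pair, and in the si-FRA1 samples it took 12.3%, 20.2% and 14.4%. The 1205Lu samples gave 1.23%, 0% and 0.571% with si-NT and 14.1%, 8.95% and 8.64% with si-FRA1. So the split moved the same way in both lines. Fitted alone, HIST2H2AA3 rose with log2 fold changes of 5.52 and 3.71 and HIST2H2AA4 fell with -0.68 and -0.47. Summed before the fit, the pair went from 561.1, 572.1 and 566.8 CPM to 426.5, 422.3 and 408.9 CPM in A375 cells (-0.44, SE 0.0206, adjusted p = 2.6e-15) and from 393.4, 402.4 and 410.6 CPM to 319.7, 333.2 and 324.5 CPM in 1205Lu cells (-0.32, SE 0.0213, adjusted p = 1.2e-10).

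The other pairs fell as sums in both lines. HIST2H3C took 64.8%, 17.3% and 15.3% of the counts of HIST2H3A and HIST2H3C in A375 si-NT samples and 50%, 0.0667% and 12.1% with si-FRA1, a split that varied within groups as well. In A375 cells neither gene was called alone (HIST2H3A -0.44, adjusted p = 0.087, and HIST2H3C -1.24, adjusted p = 0.071). HIST2H3A became -0.74 (adjusted p = 0.00025) without si-NT sample 1 and -0.66 (adjusted p = 0.022) without si-FRA1 sample 2, and at the other end it was -0.17 (adjusted p = 0.54) without si-FRA1 sample 1. HIST2H3C became -1.56 (adjusted p = 0.02) without si-NT sample 2, -1.57 (adjusted p = 0.037) without si-NT sample 3 and -3.06 (adjusted p = 0.00076) without si-FRA1 sample 1, and at the other end it was -0.26 (adjusted p = 0.76) without si-NT sample 1. In 1205Lu cells HIST2H3A fell (-0.85, adjusted p = 0.0013), and HIST2H3C was -0.33 (adjusted p = 0.36), 0.43 (adjusted p = 0.00062) without si-NT sample 1 and -0.61 (adjusted p = 0.044) without si-NT sample 2. Their sum was 291.6, 277.7 and 298.3 CPM under si-NT and 180.7, 187.6 and 182.9 CPM under si-FRA1 in A375 cells (-0.66, SE 0.0273, adjusted p = 2.1e-16), and it fell in 1205Lu cells as well (-0.63, adjusted p = 1.1e-12). HIST1H2AI and HIST1H2AJ each took a large part of their counts (in A375 si-NT samples 108.0, 109.3 and 109.6 CPM against 75.5, 74.7 and 76.4 CPM) and fell both alone and as a sum (-0.52 in A375 and -0.87 in 1205Lu cells). The sum of HIST1H4J and HIST1H4K changed by -0.28 and -0.32, and that of HIST2H4A and HIST2H4B by -0.25 and -0.36. Alone, HIST2H4B held few of the counts of its pair, at most 11.8 CPM in any sample. It was called lower in 1205Lu cells (-1.17, adjusted p = 0.036), and the call was lost without si-NT sample 1 (-0.70), si-NT sample 3 (-1.07), si-FRA1 sample 1 (-1.07) or si-FRA1 sample 2 (-0.82). In A375 cells it was not called (-0.25), and its sign turned without si-NT sample 2 (0.88) or si-FRA1 sample 1 (0.27). Without all 13 near-identical or overlapping genes, a choice made after seeing the data, 41 members were lower and 2 higher in A375 cells, and 41 were lower and 1 higher in 1205Lu cells.

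**Figure D4:**
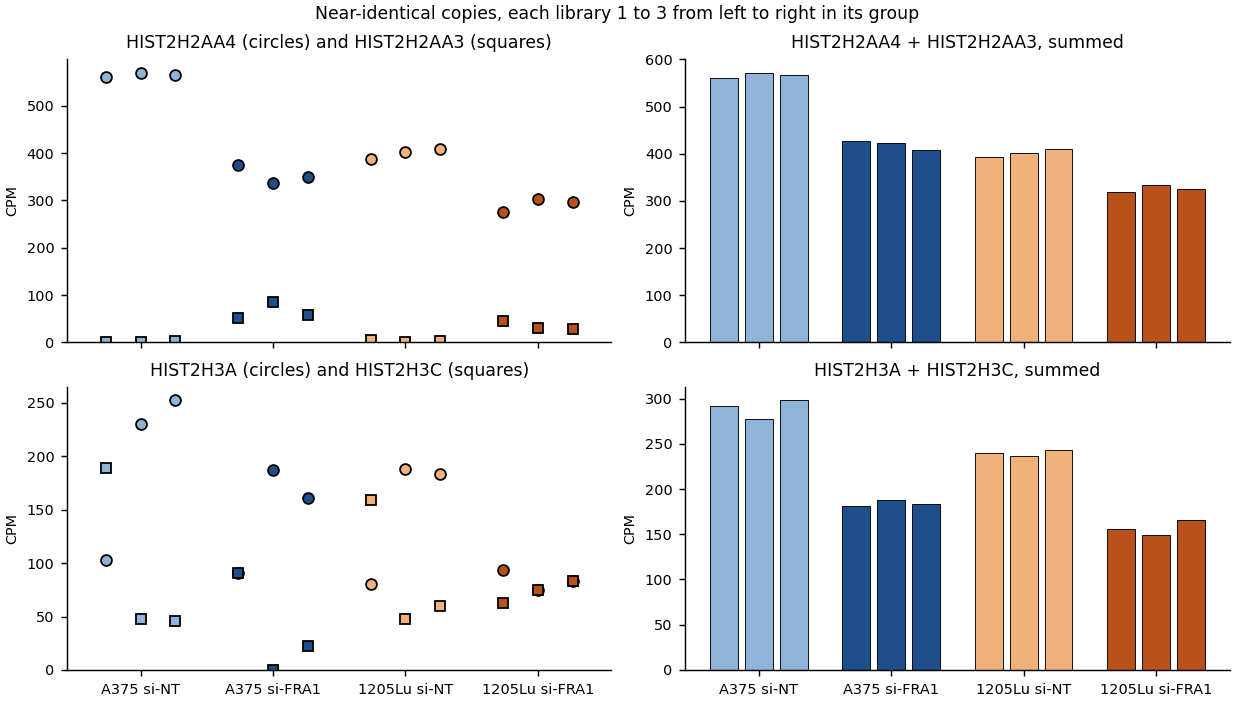
Level of 2 pairs of near-identical copies in each library (vertical axes, CPM, starting at 0) by group on the horizontal axis, singly on the left (circles and squares) and summed on the right (bars, 1 per library). HIST2H2AA3 is at or near 0 in every si-NT library and between 28.0 and 85.4 CPM in the si-FRA1 libraries, the split of HIST2H3A and HIST2H3C varies within groups, and both sums are lower with si-FRA1 in each line.

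Promoter content was set beside the changes as a description, with no test. All 12 genes with an E2F site were tested and fell in both lines, with medians of -0.53 in A375 and -0.71 in 1205Lu cells. Of the genes with a promoter and no such site, 32 of 46 tested fell in A375 cells (median -0.28) and 35 of 42 in 1205Lu cells (median -0.44). Genes with the octamer fell in 19 of 23 cases in A375 cells and in 22 of 23 in 1205Lu cells (medians -0.34 and -0.63), against 25 of 35 and 25 of 31 without it (medians -0.31 and -0.43). The 12 genes with an E2F site are 5 H2A, 6 H2B and 1 H3 gene, so site and family overlap. They are also not independent, because neighbours on opposite strands share window bases. The same site was counted for both HIST1H2BJ and HIST1H2AG, HIST1H2BL and HIST1H2AI, HIST1H2BM and HIST1H2AJ, and HIST1H2BO and HIST1H2AM.

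Genes that act with the histone genes were taken from fixed lists. Of all protein-coding genes tested, 27.8% were lower and 29.9% higher in A375 cells, and 23% were lower and 24% higher in 1205Lu cells. No list here or below was tested against these shares. Of 24 genes of S phase entry and DNA synthesis, 23 fell in A375 cells and 23 in 1205Lu cells, with medians of -0.61 and -0.61. The exception in both was CCNE1, the cyclin that starts S phase with CDK2 (-0.03, adjusted p = 0.90 in A375 cells and 0.25, adjusted p = 0.067 in 1205Lu cells). MCM4, a subunit of the replicative helicase, gave log2 fold changes of -0.94 and -0.57, and RRM2, the small subunit of ribonucleotide reductase, gave -0.61 and -0.70. Among 20 genes of histone transcription and 3′ end processing, 10 fell and 2 rose in A375 cells, and 7 fell and 2 rose in 1205Lu cells, with medians of -0.11 and -0.05. SLBP fell from a mean of 55.2 to 39.2 CPM in A375 cells (-0.50, adjusted p = 3.5e-09) and from 41.6 to 33.3 CPM in 1205Lu cells (-0.34, adjusted p = 1.7e-05). NPAT fell in A375 cells (-0.24, adjusted p = 0.0012) and was not called in 1205Lu cells (0.03, adjusted p = 0.62). POU2F1 rose in both (0.19 and 0.55). Of 14 histone chaperones, which carry histones to DNA, 11 fell and 2 rose in A375 cells and 7 fell and 2 rose in 1205Lu cells, with medians of -0.25 and -0.07. CHAF1A, CHAF1B and ASF1B, which deposit new H3 and H4 behind the replication fork, fell in both lines, with log2 fold changes between -0.42 and -0.98. ASF1A, a paralog of ASF1B, rose in A375 cells (0.45) and fell in 1205Lu cells (-0.66).

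Replacement histones, which are made outside S phase from polyadenylated mRNAs, had medians nearer to 0 than the replication-dependent genes, a difference that was not tested. Of 11 tested in A375 cells 6 fell and 2 rose, and of 10 in 1205Lu cells 5 fell and 1 rose, with medians of -0.10 and -0.10. Single values ran from -0.94 to 0.45 in A375 cells and from -0.44 to 0.21 in 1205Lu cells. The 1 that rose in 1205Lu cells was H1F0 (0.21, adjusted p = 1.6e-07), which fell in A375 cells (-0.24, adjusted p = 2.1e-08). H3F3B, which encodes H3.3, was not called in either line (-0.04 and 0.03), and H3F3A, a second H3.3 gene, rose slightly in A375 cells (0.09, adjusted p = 0.004). H2AFX, whose mRNA is known in both a stem-loop and a polyadenylated form, fell in both lines (-0.56 and -0.44). Of the histone cluster genes, 5 are also known to give polyadenylated transcripts in differentiated cells (HIST1H1C, HIST1H2AC, HIST1H2BD, HIST1H2BK and HIST2H2BE). In A375 cells 3 of these fell and 1 rose, with a median of -0.14, and in 1205Lu cells 5 fell, with a median of -0.41. HIST1H2BD was the one not called in A375 cells (0.12, adjusted p = 0.052), and it fell in 1205Lu cells (-0.41).

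Because histone mRNAs have no poly(A) tail, other abundant RNAs without one were examined beside them. The 6 RNAs RN7SK, RN7SL1, RN7SL2, RMRP, RPPH1 and TERC summed to 29740 to 30390 CPM in A375 si-NT samples and 41540 to 44620 CPM in A375 si-FRA1 samples, and 5 of them rose. In 1205Lu cells they summed to 57180 to 61560 CPM under si-NT and 53230 to 58530 CPM under si-FRA1, where 1 rose and 3 fell. All 6 were called with a positive interaction. Of the 62 histone genes tested, 22 were called positive (35.5%, against 18.9% of protein-coding genes), 4 were called negative and 36 were not called. The part of the 6 RNAs in the histone results was not tested. The sources do not say whether the libraries were selected for poly(A) tails.

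FRA1 binding near the histone genes was read from the Cut&Run counts in peaks, with 1 IgG sample per line and no test. Of the 54563 peaks, 42 lay within 3000 bases of an annotated start of a member, and they covered 58 of the 71 genes. The FRA1 antibody gave 3354095, 5316527 and 4256577 counts in all peaks in A375 cells against 383994 with IgG, and 583750, 897407 and 781542 against 314569 in 1205Lu cells. A peak was taken as enriched when each FRA1 sample reached both 10 counts and 4 times the sum of the IgG count and 1. In A375 cells 22 of the 42 peaks were enriched and 36 members (50.7%) had such a peak, against 27.5% of 20046 protein-coding genes. This excess depended on the limit, since at 8 times in place of 4 times 8 members (11.3%) had such a peak, against 12% of protein-coding genes. In 1205Lu cells 0 members had one, against 3.7%, and leaving out FRA1 sample 1, which had the fewest counts, raised this to 3 (HIST2H2AB, HIST2H2AC and HIST2H2BE). The genes are crowded and 1 peak can serve several of them, so members are not independent here.

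A peak on chromosome 1 (chr1:149884741-149889115) covers the starts of HIST2H2AB, HIST2H2AC and HIST2H2BE. It held 688, 1090 and 972 counts in the A375 FRA1 samples against 87 with IgG, and 73, 143 and 109 against 24 in 1205Lu cells. The peak that spans HIST1H3A and HIST1H4A and lies within 3000 bases of the start of HIST1H1A (chr6:26020354-26022351) held 307, 536 and 426 counts against 23 in A375 cells, and 16, 32 and 25 against 9 in 1205Lu cells. At HIST1H4C the A375 counts were 208, 335 and 243 against 20. The peak beside HIST1H1C had 107, 166 and 150 counts against 30 and was not enriched. Each of these peaks had more FRA1 than IgG counts in both lines, before any allowance for the larger FRA1 totals in peaks.

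Set against all peaks, the histone peaks did not have a larger FRA1 to IgG ratio in A375 cells. Their median ratio of FRA1 count to IgG count plus 1 was 4.1, 6.61 and 5.92 in the 3 A375 samples, where promoter peaks of all genes had 4.13, 6.44 and 5.31 and all peaks had 4.86, 7.67 and 6.17. They held 0.156%, 0.155% and 0.174% of the FRA1 counts in peaks and 0.266% of the IgG counts. When IgG was scaled to the FRA1 total in peaks, 0 members kept an enriched peak in A375 cells (0.594% of protein-coding genes did) and 0 in 1205Lu cells (1.28%). That total includes FRA1 signal itself, so the scaling also removes signal that peaks have in common, and few genes of any kind pass. The 0 therefore does not show that FRA1 was absent from these peaks. In 1205Lu cells the median ratios were 1.32, 1.69 and 1.34 at histone peaks and 1.1, 1.08 and 1.0 at promoter peaks, and histone peaks held 0.101%, 0.103% and 0.0955% of the FRA1 counts against 0.121% of the IgG counts. Of the members with an enriched A375 peak, 31 of 35 tested fell in A375 cells (median -0.34). Of those without one, 16 of 27 did (median -0.31). The uncalled genes without a peak include the near-identical copies HIST2H3A, HIST2H3C and HIST2H4B and the low-count HIST1H2BE and HIST2H3PS2. Split by the same A375 peaks, 29 of 33 and 21 of 25 fell in 1205Lu cells (medians -0.48 and -0.56). The part of the peaks in these falls was not tested.

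**Figure D5:**
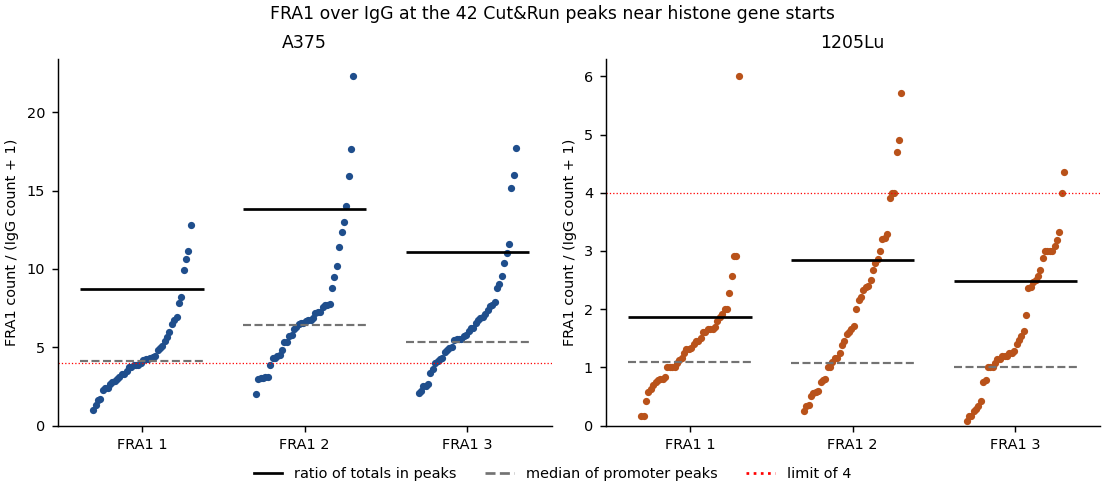
Ratio of FRA1 count to IgG count plus 1 (vertical axes) at each of the 42 peaks near histone gene starts, sorted within each FRA1 sample (horizontal axis), in A375 (left) and 1205Lu cells (right). The solid line is the ratio of the total counts in peaks, the dashed line the median ratio of all promoter peaks and the dotted line the limit of 4. The medians of the histone peaks, 4.1, 6.61 and 5.92 in A375 cells, lie near the dashed lines and under the solid lines at 8.73, 13.8 and 11.1.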

How the data were processed

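RNA-seq was made from 100 ng of total RNA with a strand-specific kit. The authors trimmed reads with cutadapt 1.8.1, aligned them to GRCh38 with STAR 2.7.7a and estimated gene levels with RSEM 1.3.0, and deposited expected counts, which were rounded to whole numbers here. For Cut&Run the authors aligned with Bowtie2 2.4.1, called peaks with MACS2 2.1.1.20160309, merged them into consensus peaks, and deposited read counts per peak for each sample. Versions are from the submitters' processing notes. Their gene models were an older GENCODE release than v44, used here for positions, where 66 members matched by identifier and 5 by symbol.

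Each line was fitted separately with edgeR 4.0.16 (R 4.3.3, filterByExpr, TMM, quasi-likelihood test, Benjamini-Hochberg adjustment over all genes tested). The interaction and the si-NT comparison came from a fit of all 12 samples. CPM used the TMM library sizes of that fit. DESeq2 1.42.0, other scalings and filters, summed copies, a replicate block and each sample left out were alternatives. Fitting was tested on simulated data. Of 1.3-fold changes, 48.5% were recovered in A375 and 49.2% in 1205Lu data, and of 2-fold changes 85.3% and 82.1%. False calls were 13 of 16797 genes tested and 11 of 16983. A member that was not called is therefore not shown to be unchanged. The simulation changed far fewer genes than were called in the data, and they were not matched to the members in counts. Its rates thus do not measure how often changes of the members would be found. Cut&Run was described without a test, and intervals and floors cover counting error only. The members and lists were chosen with earlier results of these data known. Named genes were, by rule, the 3 members of each family with the highest counts tested in both lines, the 5 largest called changes in each direction per line and the 5 largest interactions in each direction (mean of at least 100 counts), the near-identical copies, and FOSL1. Other genes named singly were chosen after their values were seen. Same-numbered samples did not deviate together (correlations of -0.041 to 0.0495), so the numbers were not taken as pairs. One si-FRA1 sample of A375 cells has a label of genomic source and was kept as RNA-seq.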

Additional observations from a re-analysis of the deposited data

Results flagged for a closer look

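These genes were taken from those named by rule. They were singled out because the response to si-FRA1 differed between A375 and 1205Lu cells by the interaction test (edgeR, adjusted p under 0.05, A375 minus 1205Lu on the log2 scale). Members called by this test but not named by rule are not listed with values here. These were HIST1H2BB, HIST1H2BC, HIST1H2BD, HIST1H2BG, HIST1H3B, HIST1H3J and HIST2H2AC, all with a positive value. Among linker histones the differences were 0.6744 for HIST1H1C, 0.1957 for HIST1H1E and -0.7641 for HIST1H1A. Among H2A genes they were 0.9591 for HIST1H2AD, 0.6921 for HIST1H2AH, 0.5241 for HIST1H2AJ, 0.4694 for HIST1H2AL, 0.4402 for HIST1H2AM, 0.2603 for HIST1H2AG, 0.156 for HIST1H2AI, -0.2208 for HIST2H2AA4 and -0.309 for HIST3H2A. The H2B genes gave 0.5741 for HIST1H2BK and -0.5568 for HIST3H2BB. The H3 genes gave 1.548 for HIST1H3E, 0.5349 for HIST1H3G, 0.5271 for HIST1H3F and 0.4608 for HIST1H3C, and HIST1H4D gave 0.6016. HIST1H2AD and HIST1H2AM overlap another gene, and HIST1H2AI, HIST1H2AJ and HIST2H2AA4 have near-identical copies, so their single values are uncertain.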

How the results depend on the processing

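Under other tools, scalings and filters and in a joint fit, 44 to 49 members were called lower in A375 cells and 47 to 50 in 1205Lu cells, and 41 in each without the near-identical copies. Members called higher in 1205Lu cells were 1 with at least 10 counts in every sample, with copies summed, and without the copies (the last added after seeing the data). With a replicate block 49 were lower in each line, and of 62 values for named genes 60 kept their call and 2 gained one. Leaving out 1 sample gave 42 to 47 lower in A375 cells and 47 to 49 in 1205Lu cells. In single genes it gave ranges of -0.1476 to 0.009756 for HIST1H4D and -1.122 to 0.8785 for HIST2H4B in A375 cells, and -0.6082 to 0.4294 for HIST2H3C and -0.1276 to 0.02267 for HIST3H2A in 1205Lu cells. Members with an enriched peak in A375 cells were 57 at 2 times IgG (80.3%, against 41.6% of protein-coding genes), 8 at 8 times (11.3%, against 12%) and 0 with IgG scaled (against 0.594%), and in 1205Lu cells 9 at 2 times (12.7%, against 9.82%) and 0 to 3 with 1 FRA1 sample left out. The causes were not tested. Low counts limit HIST1H3E and HIST2H4B, and 1 IgG sample per line limits the peaks.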
